A study of Mus musculus with 60 samples.

Results

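Matricellular proteins are secreted into the extracellular matrix but carry messages to cells more than they bear load. The genes described here were 8 of them, chosen by name with earlier results of these data known. They were Postn (periostin) and the CCN family members Ccn1, Ccn2 and Ccn5 (older symbols Cyr61, Ctgf and Wisp2). The others were the thrombospondins Thbs1 and Thbs2, Sparc (osteonectin) and Tnc (tenascin C). All 8 were found among the 47729 mouse genes of the count matrix. They were measured in PyMT-Bo1 cells, a mouse breast cancer line, that had been stained with the membrane dye DiD and given by intracardiac injection to wild-type C57BL6/J mice, females of 8 to 10 weeks by the study's methods. Dye is lost by division, so the 32 DiD+ cells, labelled High for DiD intensity, are those the study called dormant, and the 28 DiD- cells, labelled Low, those it called proliferative. The line carried Thy1.1, H2B-mApple and luciferase transgenes, and each cell of both groups was sorted into a well of its own as Thy1.1+ and CD45- from the digested femurs and tibias of 5 mice 11 days after injection. The bones were pooled and no mouse was named for a cell. Each group was therefore 1 sample, and the differences below have no replicate check and no p-value. The study separately ran qRT-PCR on sorted cells and reported Postn higher in DiD+ cells from bone and from lung. Intervals are at 95% and cover counting error only, of reads for levels and of cells for shares. The reads carried no molecular identifiers, so intervals on levels leave out the error of capturing and amplifying RNA molecules. Intervals on shares take cells as independent, although mice were pooled, so their overlap or lack of it is no test.

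These proteins are induced during wound healing, bone formation and tumor growth, and signal mainly through integrins. Periostin and tenascin C build up in the niches where disseminated breast cancer cells lodge, Ccn1 and Ccn2 are standard targets of the YAP and TAZ coactivators, which sense stiffness and cell spreading, and thrombospondin-1 in the perivascular matrix has been linked to dormancy. Ccn5 differs from its relatives in lacking the C-terminal cystine-knot domain of the other CCN proteins. Sparc is a collagen-binding glycoprotein abundant in bone.

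The promoters of 5 of the 8 genes were found in RefSeq's table (build GRCm38.p6), and 4 are shown to set the broadly expressed Ccn1 and Sparc beside Postn and Tnc, which were read in few cells. Each line gives the 250 bases before the transcription start, 5′ to 3′ along the gene's strand. Capitals mark matches to 1 of 5 motifs.
Ccn1 (chr3:145649986-145650235, reverse strand): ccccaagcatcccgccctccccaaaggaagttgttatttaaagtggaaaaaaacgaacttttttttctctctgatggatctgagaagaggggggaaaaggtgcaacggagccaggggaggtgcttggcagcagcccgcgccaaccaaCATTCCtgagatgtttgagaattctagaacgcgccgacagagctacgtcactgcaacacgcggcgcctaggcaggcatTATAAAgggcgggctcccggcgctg
Sparc (chr11:55420081-55420330, reverse strand): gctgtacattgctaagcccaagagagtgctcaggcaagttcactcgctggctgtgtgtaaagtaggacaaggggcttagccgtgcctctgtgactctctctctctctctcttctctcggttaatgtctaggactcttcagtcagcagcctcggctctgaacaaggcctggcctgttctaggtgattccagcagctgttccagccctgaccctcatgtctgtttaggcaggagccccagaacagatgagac
Postn (chr3:54360857-54361106, forward strand): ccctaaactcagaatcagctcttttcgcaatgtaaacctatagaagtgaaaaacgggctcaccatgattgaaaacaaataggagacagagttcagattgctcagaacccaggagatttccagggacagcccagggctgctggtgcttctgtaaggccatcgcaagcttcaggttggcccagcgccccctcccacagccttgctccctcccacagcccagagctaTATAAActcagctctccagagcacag
Tnc (chr4:64047016-64047265, reverse strand): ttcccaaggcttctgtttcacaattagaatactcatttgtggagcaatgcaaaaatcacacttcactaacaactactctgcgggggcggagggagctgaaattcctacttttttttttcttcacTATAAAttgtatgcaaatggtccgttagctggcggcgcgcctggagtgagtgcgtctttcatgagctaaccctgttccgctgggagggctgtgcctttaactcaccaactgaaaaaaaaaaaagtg
The motifs searched were GGAATG, bound by the TEAD partners of YAP, TGANTCA for AP-1, GTCTAGAC for SMAD and the CArG box of serum response factor, on both strands, and TATAAA on the gene's own strand. The Ccn1 promoter held TATAAA from 25 to 20 bases before the start, and CATTCC, which is GGAATG on the opposite strand, from 103 to 98 bases before it. Postn, at the downstream of its pair of listed starts, held TATAAA from 26 to 21 bases before the start. In Tnc the same letters lay further off, from 126 to 121 bases before the start shown. They lay from 205 to 200 bases before the other listed Tnc start, which is downstream. No match lay in the windows of Sparc or Thbs2, or at the upstream Postn start. Of 32851 promoters of this length, 12.6% held GGAATG, 7.59% TATAAA, 6.75% TGANTCA, 1.47% a CArG box and 0.167% GTCTAGAC. Ccn2, Ccn5 and Thbs1 had no entry.

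Counts assigned to mouse genes ranged from 2276795 to 7794224 in a DiD+ cell (median 4653723) and from 2624416 to 6199117 in a DiD- cell (median 4440166), and spike-in RNA took a median 1.88% and 1.51% of counts. Summed proliferation genes had a median of 1644 CPM (counts per 1000000 mouse-gene counts) in DiD+ and 7156 CPM in DiD- cells. Krt8, a keratin of the line, was counted in every cell, whereas Epcam, Krt7 and Krt19 were at 0 in both groups. At least 7 of 13 macrophage or monocyte markers had 10 or more counts in 6 DiD+ cells (numbers 19, 21, 24, 30, 37 and 88) and 1 DiD- cell (84), although the gate took CD45- cells. At least 6 of 12 stromal markers did so in 1 DiD+ cell (31) and in 0 DiD- cells. Of the stromal list, Cxcl12 was at 89.5 and 106 CPM in the groups and Pdgfra at 10.04 and 6.92 CPM, but Lum, Adipoq and Ebf3 had no count in any cell. Cell titles fell into 2 number ranges, 17 to 46 (18 DiD+ and 12 DiD- cells) and 63 to 92 (14 and 16), whose meaning the labels do not give.

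The 8 genes fell into those read in most cells of both groups (Ccn1, Sparc, Thbs2 and Ccn2) and those read in at most 16 of 32 DiD+ cells (Thbs1, Postn, Ccn5 and Tnc). Summed over cells, the second set was higher in DiD+ than in DiD- cells, Tnc through 1 cell. Of the 8, 4 were at least 2-fold higher there in summed CPM (log2 ratio with a pseudocount of 1 CPM), against 12.1% of the 12432 mouse genes that reached 1 CPM in a group, and 0 were at least 2-fold lower, against 4.86%. With a minimum of 10 CPM these shares of all genes were 6.38% and 3.18%, and with no minimum 7.99% and 3.21%. The median log2 ratio of the 8 was 1.19, where that of all 12432 genes was 0.04. The genes were chosen with earlier results of these data known. The study had already named Postn as a dormancy-related gene and Thbs1 among the genes that differed in DiD+ cells. An excess over all genes is thus partly fixed by the choice, and these comparisons are descriptions only. A DiD+ cell held 10 or more counts of between 2 and 7 of the 8 genes, with a median of 4, which was also the range and median of DiD- cells. At least 5 of the 8 were held by 14 of 32 DiD+ and 5 of 28 DiD- cells.

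**Figure D1:**
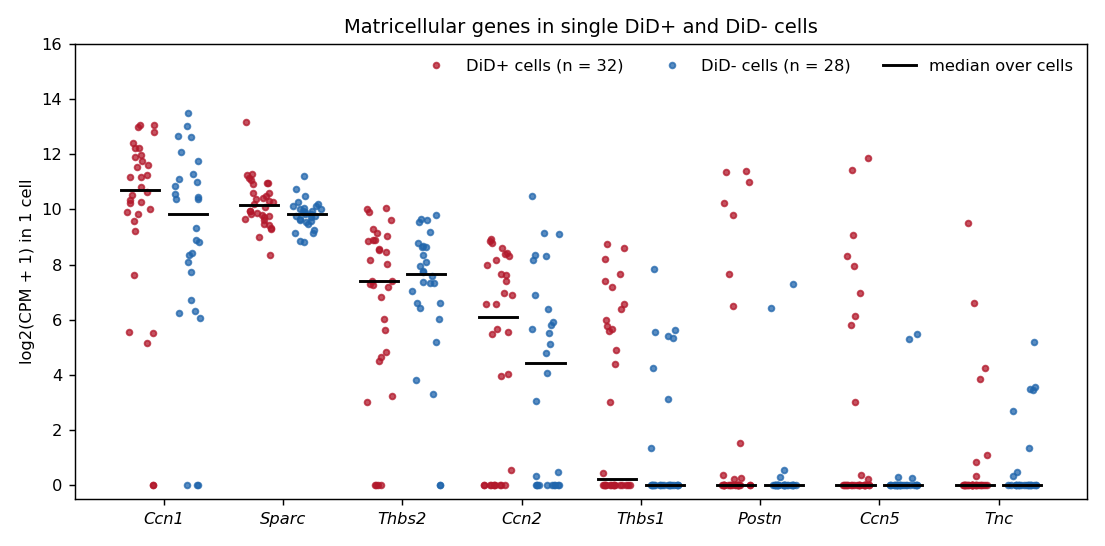
Level of each of the 8 genes in every cell, as log2(CPM + 1) on the vertical axis, for 32 DiD+ cells (red) and 28 DiD- cells (blue), with a black bar at the median over cells. Ccn1, Sparc and Thbs2 lie above 0 in nearly every cell of both groups, whereas Postn, Ccn5 and Tnc have medians of 0 and a few DiD+ cells far above the rest.

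Levels of different genes were compared per kilobase of exonic sequence. In DiD+ cells the order was Ccn1 (1301 CPM per kb), Sparc (392), Ccn5 (93.1), Ccn2 (46.2), Thbs2 (43.2), Postn (33.9), Thbs1 (9.93) and Tnc (2.03). In DiD- cells it was Ccn1 (987.5 CPM per kb), Sparc (259), Ccn2 (50.4), Thbs2 (42.3), Thbs1 (2.76), Ccn5 (1.72), Postn (0.962) and Tnc (0.374). Single cells of every pair of neighbours overlapped in level, so neither order held cell by cell. Ccn5 and Postn held the places 3 and 6 in DiD+ cells but 6 and 7 in DiD- cells.

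Periostin, an integrin ligand that cross-links collagen in bone and tumor stroma, was concentrated in 5 DiD+ cells. Its gene, Postn (ENSMUSG00000027750, chr3:54361109-54391037, forward strand, GRCm38), reached 295 CPM (292 to 298) over the DiD+ cells and 8.37 CPM (7.86 to 8.90) over the DiD- cells. That is a log2 ratio of 4.98, or 35.2-fold (33.1 to 37.6). By cell, the levels were 2714 CPM in DiD+ cell 29, 2609 in cell 68, 2016 in cell 41, 1198 in cell 82 and 892 in cell 31, which together held 96.8% of the DiD+ counts. Cells 37 and 38 followed at 199 and 89.7 CPM. The other 25 DiD+ cells had under 10 counts, and 21 of them none. Among DiD- cells, 34 had 155 CPM and 92 had 85.7 CPM, and the other 26 had under 10 counts. Thus most DiD+ cells did not differ from most DiD- cells in Postn, and the groups parted at the 6 highest DiD+ cells, each above the highest DiD- cell.

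With any 1 cell left out, the log2 ratio of Postn ran from 4.61 (without DiD+ cell 29) to 6.55 (without DiD- cell 34). It was 4.24 among cells numbered 17 to 46 and 6.05 among those numbered 63 to 92. A count of Postn was seen in 11 of 32 DiD+ cells (34.4%, exact interval 18.6 to 53.2%) and 4 of 28 DiD- cells (14.3%, 4.03 to 32.7%), intervals that overlapped. After thinning every cell to 2200000 counts the numbers were 11 and 3. The 7 DiD+ cells with 10 or more counts each held luciferase counts, from 90 in cell 38 to 795 in cell 82. They differed in proliferation genes: the summed level was 268 CPM in cell 29, 260 in cell 41 and 293 in cell 68, but 2844 in cell 31 and 9226 in cell 82.

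Ccn5, whose protein restrains the growth of smooth muscle cells, was, like Postn, high in a few DiD+ cells. Ccn5 (ENSMUSG00000027656, chr2:163820861-163833146, forward strand) reached a summed 179 CPM (177 to 181) in the DiD+ group and 3.31 CPM (2.996 to 3.66) in the DiD- group, which gave 5.38 as the log2 ratio and 54.0-fold (48.9 to 59.8). Its levels were 3773 CPM in DiD+ cell 68, 2759 in cell 31, 533 in cell 41, 317 in cell 75, 248 in cell 29, 125 in cell 23, 68.9 in cell 76, 54.9 in cell 37 and 7.08 in cell 87. The other 23 DiD+ cells had under 10 counts. In the DiD- group cell 26 had 43.8 CPM and cell 65 had 38.8 CPM, and no other cell reached 10 counts. The 8 highest DiD+ cells were each above the highest DiD- cell, while 21 of 32 and 24 of 28 cells had no count at all. Cell 68 alone held 53.2% of the DiD+ counts, a share that 1 cell held for 1.18% of the 8463 genes with at least 10 CPM in DiD+ cells. Cell 68 also had the fewest genes (6024) and the highest spike-in share (6.53%) of the DiD+ cells. Without it the log2 ratio was 4.33, and without DiD- cell 26 it was 6.19. The log2 ratio was above that of Postn over all 60 cells, but below it without cell 68, without DiD- cell 34 and with a pseudocount of 10 CPM (3.83 against 4.05). The part of depth and RNA content in this value was not tested.

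Postn and Ccn5 shared several of their cells. Of the 7 DiD+ cells with 10 or more counts of Postn, 5 (29, 31, 37, 41 and 68) also held 10 or more of Ccn5, which were 5 of its 9 cells. In the DiD- group 0 cells held both. Across the 32 DiD+ cells the Spearman rho of their CPM was 0.44, and each also ran with Sparc, at 0.39 for Postn and 0.49 for Ccn5. These are descriptions, as many values were 0. Ccn5 fell with depth across DiD+ cells (rho −0.44 with total counts), with proliferation genes (−0.44) and with Krt8 (−0.49). For Postn the same values were −0.10, −0.20 and −0.42. In the 5 cells highest in Postn, Krt8 had 572 counts (cell 31) to 3874 (cell 82), against a DiD+ median of 7967, and Krt18 had 0 in cell 68 and 2 in cell 41. Col3a1, a fibrillar collagen gene, had 886 to 18672 counts in these 5 cells, but 0 in cells 37 and 38. Col1a1 was counted in 3 of the 60 cells, 29 (49 counts), 31 (193) and 41 (23), which also held 136, 453 and 146 counts of Dmp1, an osteocyte gene, while Col1a2 had 0 counts in all 7. Of 9 osteoblast markers, 4 had 10 or more counts in cell 29, 3 in cell 31, 2 in cells 41 and 82 and 1 in cell 68, where DiD+ cells ranged from 0 to 4 and DiD- cells from 0 to 2, with Sp7 and Ibsp at 0 in both groups. The summed level of these markers was 223 CPM in cell 29, 226 in cell 31, 33.97 in cell 41, 199 in cell 68 and 38.5 in cell 82 (range 0 to 818 CPM, median 24.8, in DiD+ and 0 to 61.8 CPM, median 1.22, in DiD- cells). The summed stromal markers, Col3a1 among them, reached 357 CPM in cell 29, 1002 in cell 31, 3878 in cell 41, 713 in cell 68 and 671 in cell 82, against medians of 209 in DiD+ and 186 in DiD- cells and a highest DiD- cell of 521 CPM. The 5 cells thus stood above the group medians of both lists in summed level. By number of stromal markers with 10 or more counts they stood out less. Cell 29 held 5, cell 31 held 6 and cells 41, 68 and 82 held 4 each, against medians of 3.5 in DiD+ and 4 in DiD- cells. Cell 37 carried 13 of 13 macrophage markers, and cell 29 held 4 of 7 megakaryocyte or platelet markers (highest DiD- cell 2). The part that RNA of another cell in the well had in these values was not tested. Leaving out the 7 cells with macrophage markers gave log2 ratios of 5.24 for Postn and 5.66 for Ccn5, and leaving out cell 31, with its 6 stromal markers, 4.93 and 5.01.

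**Figure D2:**
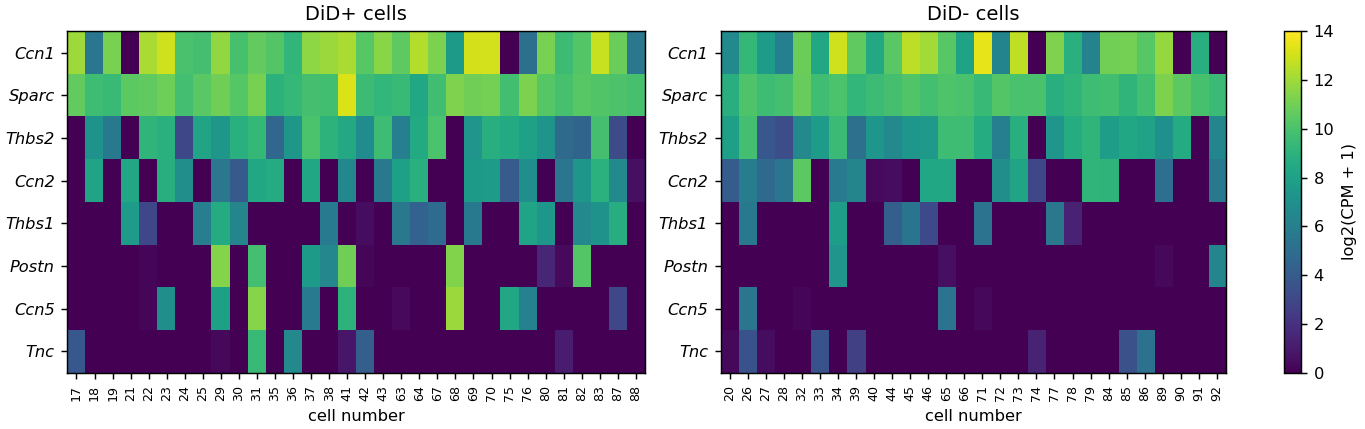
Level of the 8 genes (rows) in each DiD+ cell (left) and DiD- cell (right), columns being cells in order of their number and color the log2(CPM + 1). Cells 29, 31, 41 and 68 are bright for both Postn and Ccn5, and the 1 bright Tnc cell is number 31.

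Tnc, the gene of a large hexameric glycoprotein of tumor and stem cell niches, followed 1 cell. Tnc (ENSMUSG00000028364, chr4:63959785-64047015, reverse strand) summed to 15.7 CPM (15.1 to 16.4) for DiD+ and to 2.90 CPM (2.61 to 3.23) for DiD- cells, so the log2 ratio was 2.10. Cell 31 had 720 CPM, or 71.3% of the DiD+ counts, cell 36 had 96.9, cell 42 had 17.9 and cell 17 had 13.4 CPM. The highest DiD- cell, 86, had 35.8 CPM, and 10 or more counts were found in 5 DiD- cells against 4 DiD+ cells. The groups thus overlapped but for cells 31 and 36. Without cell 31 the log2 ratio was 0.52. It was 2.98 among cells numbered 17 to 46, where all 4 DiD+ cells lay, and −1.99 among those numbered 63 to 92. No direction can be read for Tnc from these values.

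Thbs1, which encodes an angiogenesis inhibitor and activator of latent TGF-β, was read in more DiD+ than DiD- cells. Thbs1 (ENSMUSG00000040152, chr2:118111876-118127133, forward strand) had 60.3 CPM (59.1 to 61.6) against 16.7 CPM (16.02 to 17.5), so the log2 ratio was 1.79 and the fold 3.60 (3.43 to 3.78). A count was seen in 16 of 32 DiD+ cells (exact interval 31.9 to 68.1%) and 8 of 28 DiD- cells (28.6%, 13.2 to 48.7%), intervals that overlapped. The highest DiD+ cells were 87 (427 CPM), 29 (389), 76 (294) and 21 (202), and the other 12 with a count lay at 169 CPM or below. DiD- cell 34 had 228 CPM, 55.2% of its group's counts, and the next, cell 26, had 48.8 CPM. DiD+ cells 87, 29 and 76 thus stood above cell 34, and 11 DiD+ cells stood above every DiD- cell other than 34. Without cell 34 the log2 ratio was 2.80, and it was 0.46 among cells numbered 17 to 46 against 3.66 among those numbered 63 to 92. Cells 21 and 30, both with macrophage markers, held 15.4% of the DiD+ counts. Leaving out all cells with such markers gave 1.84. Cell 29 held 10 or more counts of 4 of 7 megakaryocyte or platelet markers. DiD+ cells ranged from 0 to 4 of these (median 0) and DiD- cells from 0 to 2. The part of RNA from another cell in the well was not tested. Thbs1 showed no relation to Postn or Ccn5 across DiD+ cells: 3 of them held 10 or more counts of Thbs1 and Postn, 3 of Thbs1 and Ccn5, and the rho values were 0.04 and −0.07.

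**Figure D3:**
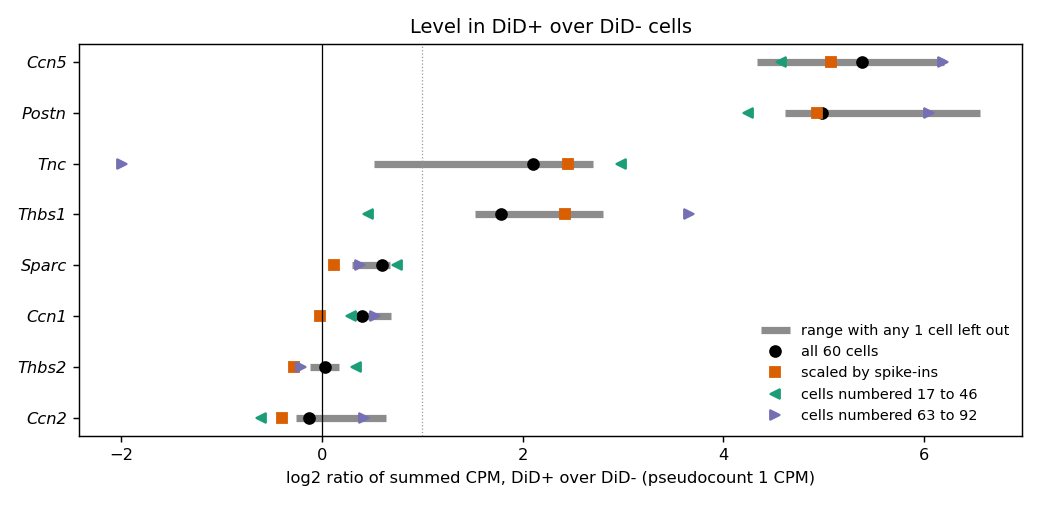
Log2 ratio of summed CPM, DiD+ over DiD-, for the 8 genes (black circles), with grey bars for the range when any 1 cell is left out and symbols for spike-in scaling and the 2 ranges of cell numbers. Postn and Ccn5 stay above 4 in every version shown, whereas Tnc runs from −1.99 to 2.98.

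The 4 broadly read genes differed little in sum. Sparc (ENSMUSG00000018593, chr11:55394500-55423183, reverse strand) was counted in all 60 cells. It ran from 321 to 9331 CPM in DiD+ cells, with a median of 1132, and from 450 to 2400 CPM in DiD- cells, with a median of 915. The groups overlapped, with 3 DiD+ cells above the highest DiD- cell, and cell 41 held 21.4% of the DiD+ counts. The sums were 1484 CPM (1478 to 1490) for DiD+ and 982 CPM (976 to 987) for DiD- cells. Their log2 ratio was 0.60, and 0.30 without cell 41. Across DiD+ cells Sparc was lower where proliferation genes were higher (rho −0.48), while in DiD- cells the value was −0.07.

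Ccn1, an immediate-early gene whose product binds integrins αvβ3 and α6β1, ranged from 0 to 8642 CPM (cell 69) in DiD+ cells and from 0 to 11602 CPM (cell 71) in DiD- cells, with medians of 1682 and 980. It was at 0 in 2 DiD+ and 3 DiD- cells, so the groups overlapped over nearly the whole range. Ccn1 (ENSMUSG00000028195, chr3:145646976-145649981, reverse strand) summed to 2628 CPM (2619 to 2636) for DiD+ and 1994 CPM (1986 to 2002) for DiD- cells. The log2 ratio was 0.40 and ran from 0.30 to 0.69 with any 1 cell left out. Scaling by spike-ins moved the median over all genes from 0.04 to −0.34, and Ccn1 to −0.01, Sparc to 0.12, Thbs2 to −0.27 and Ccn2 to −0.40. Under that scaling 8.43% of genes were at least 2-fold higher in DiD+ cells and 10.4% lower, and Postn (4.93) and Ccn5 (5.07) remained far above the median.

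Ccn2, a profibrotic partner of TGF-β, was counted in 22 of 32 DiD+ and 18 of 28 DiD- cells. Ccn2 (ENSMUSG00000019997, chr10:24595442-24598683, forward strand) reached 482 CPM in DiD+ cell 83 and 1439 CPM in DiD- cell 32, with medians of 71.3 and 21.2 CPM. The sums, 132 CPM (130.3 to 134) for DiD+ and 144 CPM (142 to 146) for DiD- cells, gave −0.13 as the log2 ratio. Cell 32 held 44.1% of the DiD- counts, and without it the ratio was 0.64, so the sign rested on 1 cell. The ratio was −0.61 in cells 17 to 46 and 0.42 in cells 63 to 92.

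Thbs2, whose product inhibits angiogenesis and takes part in collagen fibril assembly, was counted in 28 of 32 DiD+ and 26 of 28 DiD- cells. Thbs2 (ENSMUSG00000023885, chr17:14665500-14694235, reverse strand) had medians of 168 and 202 CPM and highest cells of 1056 and 885 CPM. The sums were 303 CPM (299.9 to 306) for DiD+ and 296 CPM (293 to 299.5) for DiD- cells. Their log2 ratio was 0.03 and lay between −0.11 and 0.17 with any 1 cell left out. Thbs1 and Thbs2, the pair of thrombospondins, differed in this: the former was rarer and higher in DiD+ cells, the latter broad and near even between groups.

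Genes whose levels followed each member across the 60 cells were sought by Spearman rho of CPM over 8688 genes. Ccn1 ran with Nr4a1 (rho 0.77, 0.80 within DiD+ and 0.72 within DiD- cells), Nfkbiz (0.69) and Egr2 (0.68). Nr4a1 and Egr2 encode immediate-early transcription factors, and Nfkbiz a rapidly induced NF-κB regulator. The relation was seen in both groups, and it was the closest found for any of the 8 genes. Ccn2, though a relative and a textbook YAP target like Ccn1, had a rho of 0.12 with Ccn1. Its closest genes were Dimt1 (0.44), Dnajc30 (0.43) and Mettl6 (0.42), with Ankrd1, another YAP target, at 0.23 for Ccn2 and −0.19 for Ccn1.

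Sparc ran with Pcolce (0.64), which speeds procollagen cleavage, with Ogn (0.61), a small leucine-rich proteoglycan, and with Nck1 (0.57), an adaptor protein. The Sparc and Ogn relation lay in the DiD+ cells (0.76, against 0.19 in DiD- cells, where 3 cells had 1 count or more of Ogn). Thbs2 ran with Fn1 (0.60), the fibronectin gene, to a like degree in DiD+ (0.60) and DiD- cells (0.69), then with Rabgap1 (0.60) and Pink1 (0.56). Postn ran with Col12a1 (0.61, 0.71 within DiD+ and 0.25 within DiD- cells), a collagen that coats fibrils, with Nck1 (0.51) and with Prelp (0.49), a collagen-binding proteoglycan gene with 31.8 CPM over the DiD+ cells and a count in 1 DiD- cell. For Ccn5 the closest were Slc22a5 (0.50), Fpgt (0.46) and Mrc2 (0.46), a collagen uptake receptor. Thbs1 ran with Tsc22d3 (0.54), a glucocorticoid-induced gene, Cav1 (0.53), the main caveolae gene, and 2310009B15Rik (0.50). Tnc ran with Leng1 (0.44) and Pdgfa (0.43), among others. All of these are descriptions over 60 cells and, for the rarer genes, rest on many values of 0.

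**Figure D4:**
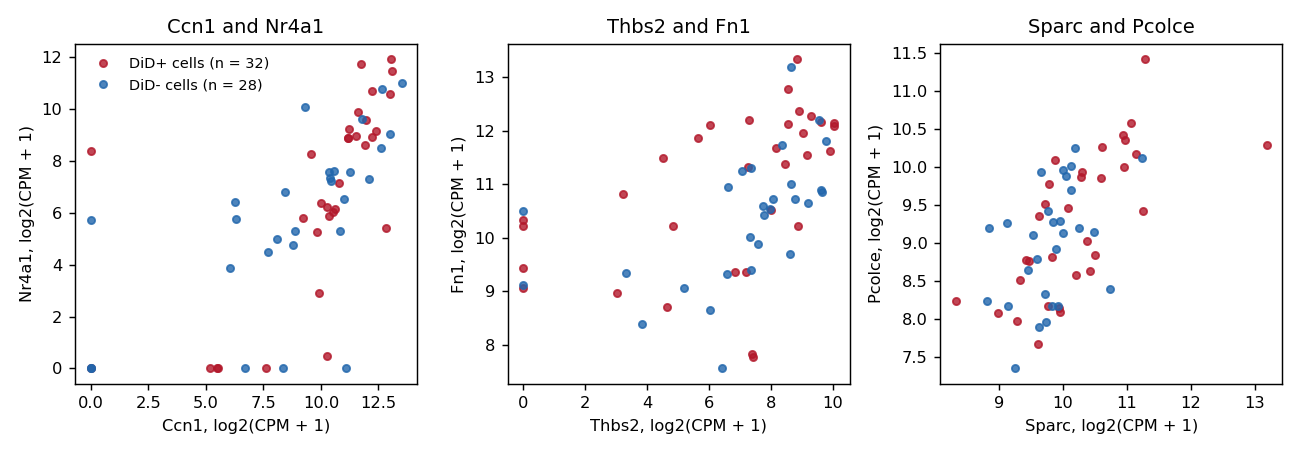
Level in each cell, log2(CPM + 1) on both axes, of Ccn1 against Nr4a1, Thbs2 against Fn1 and Sparc against Pcolce, the closest gene of each, with DiD+ cells in red and DiD- cells in blue. Cells of both groups rise together in each panel (rho 0.77, 0.60 and 0.64 over 60 cells).

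Other matricellular genes showed a like spread. Of 28 such genes, 8 had no count and 15 reached 1 CPM in a group. Their median log2 ratio was 0.93, with 6 at least 2-fold higher in DiD+ cells and 0 lower. The 6 were 40% of the 15, where the shares of all genes were 12.1% higher and 4.86% lower. Spp1 (osteopontin), a major integrin ligand of bone, was counted in all 60 cells and summed to 5682 against 2345 CPM (1.28). Added up within each cell, the genes of this list, Spp1 included, had a DiD+ median of 3636 CPM. The DiD- median was 3698 CPM, and the highest cells reached 35178 (DiD+) and 9269 CPM (DiD-). By this summed level the median DiD+ cell was thus not above the median DiD- cell. How far single cells carried the Spp1 sum was not tested. Sparcl1, the close relative of Sparc, was at 64.97 against 10.6 CPM (2.51), with 38.3% of its DiD+ counts in the cells with macrophage markers, and Fstl1, which shares a domain with Sparc, at 61.3 against 20.7 CPM (1.52). Dmp1, an osteocyte mineralization protein, reached 30.4 CPM over DiD+ cells, with 0 counts in DiD- cells. With the DiD- group set at the limit of 3 counts the fold was 1209.6, which covers counting error only. It is no lower bound over cells, since 0 of 28 DiD- cells with a count still allows 10.7% of such cells to hold Dmp1. DiD+ cell 70 held 74.03% of its counts. The other CCN genes read, Ccn3 (5.65 against 2.04 CPM, 1.13) and Ccn4 (25.5 against 15.4 CPM, 0.69), had 10 or more counts in 5 and 12 DiD+ cells and in 3 and 10 DiD- cells. Ccn4 ran with Ccn5 (rho 0.62) and Sparc (0.68) across DiD+ cells. Thbs3 stood at 59.4 against 30.6 CPM (0.93). At the other end were the fibulin Fbln2 (430 against 748 CPM, −0.80), Tgfbi, a fasciclin-domain relative of Postn (221 against 281, −0.35), and Fbln1 (14.9 against 18.3, −0.28).

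The collagens and assembly factors that these proteins bind had 14 of 17 genes at 1 CPM or more, a median log2 ratio of 1.32, and 8 at least 2-fold higher in DiD+ cells with 0 lower. The 8 were 57.1% of the 14, where the shares of all genes were 12.1% higher and 4.86% lower. Col3a1 (197 against 28.3 CPM, 2.76), Col12a1 (15.02 against 2.58, 2.16) and Col6a2 (44.6 against 15.7, 1.45) were at the upper end. Cell 41, high in Sparc and Postn, held 64.8% of the DiD+ Col3a1 counts and 36.6% of those of Col12a1, and without it the list's median was 0.81. At the lower end were Bmp1, a procollagen protease (267 against 364 CPM, −0.45), Col6a1 (185 against 187, −0.01) and Pcolce (737 against 580, 0.35). Type I collagen, the bulk protein of bone, was nearly unread: Col1a1 summed to 1.81 CPM over DiD+ cells, 72.8% of it in cell 31, against 0 counts in DiD- cells.

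Receptors for matricellular proteins had 20 of 28 genes at 1 CPM or more, a median of 0.33, 6 at least 2-fold higher and 0 lower. The 6 were 30% of the 20, against 12.1% of all genes higher and 4.86% lower. The upper end was Cd36, a thrombospondin receptor (20.8 against 1.52 CPM, 3.11), Stab1, a scavenger receptor for Sparc (15.2 against 3.02, 2.01), and Vcam1 (352 against 147, 1.26). The 6 DiD+ cells with macrophage markers held 99.7%, 70.8% and 69.7% of the DiD+ counts of these genes, and without such cells the list's median was −0.16. The integrin subunits Itga6 (103 against 189 CPM, −0.87), Itga5 (186 against 318, −0.77) and Itga3 (135 against 229, −0.76), which were read in nearly all cells, lay at the lower end. Itgb5, which pairs with αv to bind periostin, followed Thbs2 (rho 0.46) and Ccn1 (0.44) across the 60 cells, and stood at 456 against 407 CPM.

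The other YAP and TAZ targets had 17 of 21 genes at 1 CPM or more, a median of 0.36, 3 at least 2-fold higher and 0 lower. The 3 were 17.6% of the 17, near the 12.1% of all genes, of which 4.86% were lower. Arhgef17 (13.5 against 2.99 CPM, 1.86), Gadd45a (70.6 against 21.7, 1.66) and Rbms3 (12.5 against 5.57, 1.04) were at the upper end, and Axl (407 against 683, −0.75), Nuak2 (18.97 against 30.9, −0.68) and Nt5e (156 against 243, −0.63) at the lower. The median was −0.12 without DiD+ cell 29, so its sign rested on 1 cell. It was 0.08 in cells 17 to 46 and 0.07 in cells 63 to 92. Under spike-in scaling it was −0.02, where the median of all genes was −0.34. The median rho of these 17 genes was 0.05 with Ccn1 and 0.01 with Ccn2, and F3, the tissue factor gene, was the closest to Ccn1 (0.49).

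**Figure D5:**
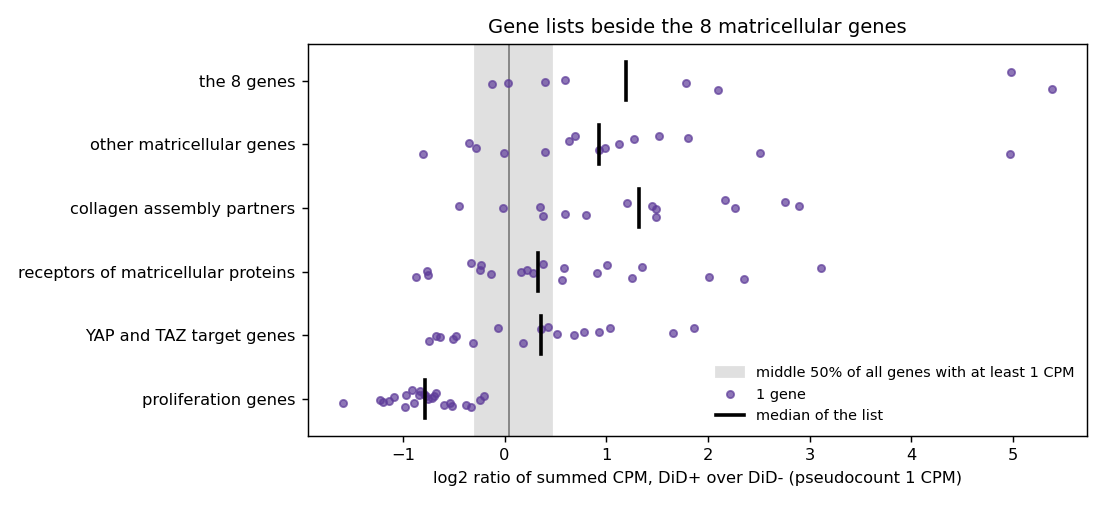
Log2 ratio of summed CPM, DiD+ over DiD-, for each gene of 6 lists that reached 1 CPM in a group (purple points), with a black bar at the list's median and a grey band for the middle 50% of 12432 genes (−0.29 to 0.46). The 8 genes (median 1.19), the other matricellular genes (0.93) and the collagen partners (1.32) have medians above the band, and the proliferation genes (−0.78) below it.

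Proliferation genes lay on the other side of all genes, with a median log2 ratio of −0.78 over 24 genes, 0 at least 2-fold higher and 5 lower. The 5 were 20.8% of the 24, against 4.86% of all genes, of which 12.1% were higher. At the lower end were the replication gene Mcm3 (98.9 against 298 CPM, −1.58), Top2a (138 against 322, −1.22) and the mitotic checkpoint kinase Bub1 (48.7 against 113, −1.20), and at the upper end Rrm2 (311 against 390.2, −0.33), Ccnb1 (405 against 478, −0.24) and Ccnb2 (269 against 310.5, −0.20).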

How the data were processed

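Single cells were sorted into wells and amplified as full-length cDNA with spike-in RNA. Per the labels, adapters were removed, STAR placed the reads on GRCm38/mm10 with spike-in and transgene sequences added, and RSEM estimated expression. The table the authors deposited holds estimated counts, not normalized, of 47825 entries in 60 cells, and 96.6% of its values were whole numbers (within 1e-09). The authors also deposited a table of normalized signal from BASiCS, used here as an alternative scaling only. Columns were matched to cells by name, and 0 columns were left unused.

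Counts were rounded, totals left out spike-ins and transgenes, and counts were summed over each group. The log2 ratio used a pseudocount of 1 CPM, intervals were exact (Poisson for counts, Clopper-Pearson for shares), and a count of 0 had a limit of 3 counts over the group. No test was run, because each group is 1 sample. Length was the union of exons in GENCODE vM21. No doublet caller was run. Columns of cells were compared in 1770 pairs (Pearson r 0.56 to 0.84), and 0 were identical.

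The 8 genes and all lists were chosen with earlier results of these data known. From each list the text names the 3 highest and 3 lowest ratios among genes that reached 10 CPM in a group and were counted in 5 or more cells of the higher group, further members of the same protein families, and, for each of the 8 genes, the 3 genes of highest rho among genes counted in 10 or more cells. For Tnc, 1 of these genes is not reported here. Other genes were named after their values were seen. Alternatives were TMM factors (edgeR 4.0.16), DESeq2 1.42.0 size factors, spike-in scaling, BASiCS values, the mean of each cell's CPM, other pseudocounts and minimums, leaving out each cell, and leaving out cells with markers of other types. The ranges of cell numbers were added after the data were seen. Scripts used Python 3.11.15, numpy 2.4.6, pandas 2.3.3, scipy 1.17.1 and R 4.3.3, and were tested on simulated counts.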

Additional observations from a re-analysis of the deposited data

How the results depend on the processing

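The median log2 ratio of the 8 genes was 1.19. It was 1.34 with BASiCS values, 1.32 with the mean of each cell's CPM, 1.27 with spike-in scaling, 1.27 without cells with macrophage markers, 0.79 with a pseudocount of 10 CPM, 0.55 without cell 31, which carried stromal markers, 0.60 in cells 17 to 46 and 0.48 in cells 63 to 92. With any 1 cell left out it ran from 0.55 to 1.33. The number of the 8 genes at least 2-fold higher in DiD+ cells was 4, and 3 to 4 under every alternative run, but the genes counted changed. Postn and Ccn5 were among them each time, while Thbs1 was at 0.46 in cells 17 to 46 and Tnc at 0.52 without cell 31. Tnc turned to −1.99 in cells 63 to 92, whose DiD+ cells held few of its counts. Between 2.36% (pseudocount of 10 CPM) and 17.1% (cells 17 to 46) of all genes were at least 2-fold higher. With 1 pool of mice, counting intervals understate the error of every ratio. Thinning each cell to 2200000 counts left 10 of 11 DiD+ and 3 of 4 DiD- cells with a count of Ccn5. No paired analysis was possible because the labels give no number that pairs a DiD+ with a DiD- cell and no result comes from a test.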
